A study of Mus musculus with 2 samples.

Results

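Pancreatic endothelial cells, the cells that line blood and lymphatic vessels, made up 66 of the 10008 complete cells deposited for this single-cell RNA-seq study of the fetal mouse pancreas. A cell was counted as endothelial when its unique molecular identifiers (UMIs, 1 per captured transcript) for Pecam1, Cdh5, Kdr and Cldn5 summed to 4 or more over at least 2 of these genes. It also had to have no Epcam UMI and low levels of the collagens Col1a1 and Col3a1, of the acinar enzyme Ctrb1 and of the hormones Gcg, Ins1 and Ins2. Pancreata were taken from E15.5 embryos, with 1 library of wild-type (WT) tissue and 1 library of Mettl3pKO tissue. In Mettl3pKO mice Mettl3, the catalytic subunit of the complex that writes N6-methyladenosine (m6A) into RNA, was removed in pancreatic progenitors that express Pdx1. Pdx1 marks the epithelial lineage of the pancreas, and endothelial cells are not known to descend from it. The labels do not name the Cre line, the strain or the number of pooled embryos. With 1 library per genotype no test between genotypes is possible, and every interval below is a 95% interval that covers counting error only.

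Endothelial cells form the inner wall of vessels. VE-cadherin (Cdh5) and PECAM-1 (Pecam1) hold neighbouring cells together, and the receptor VEGFR2 (Kdr) reads the growth factor VEGF-A that surrounding tissue releases. Arteries, veins, capillaries and lymphatic vessels use different sets of transcription factors, with Notch signalling and Sox17 on the arterial side, Nr2f2 on the venous side and Prox1 in lymphatic vessels. In the developing pancreas, vessels lie between the branching epithelium and the mesenchyme, and pancreatic epithelium is known as a source of VEGF-A.

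Many endothelial promoters carry sites for ETS factors, whose DNA core is GGAA. The promoters of Emcn (endomucin, a sialomucin of the endothelial surface), Flt1 (VEGFR1) and Egfl7 (a matrix protein secreted by endothelium) are shown because each held more than 1 copy of the longer word AGGAAG, in capitals on either strand (CTTCCT on the other), in the bases before the start site. The sequences are from the RefSeq promoter table for GRCm38.p6, read 5′ to 3′ on the strand of the gene. They cover chr3:137340828-137341077 on the plus strand for Emcn, chr5:147726012-147726261 on the minus strand for Flt1 and chr2:26580833-26581082 on the plus strand for Egfl7, of which the table holds 3 windows and the first is printed.
Emcn: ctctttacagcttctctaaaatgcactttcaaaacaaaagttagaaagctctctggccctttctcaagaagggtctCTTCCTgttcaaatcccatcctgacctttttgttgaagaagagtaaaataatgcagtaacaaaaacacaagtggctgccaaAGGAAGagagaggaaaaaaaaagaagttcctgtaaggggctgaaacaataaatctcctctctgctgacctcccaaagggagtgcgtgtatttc
Flt1: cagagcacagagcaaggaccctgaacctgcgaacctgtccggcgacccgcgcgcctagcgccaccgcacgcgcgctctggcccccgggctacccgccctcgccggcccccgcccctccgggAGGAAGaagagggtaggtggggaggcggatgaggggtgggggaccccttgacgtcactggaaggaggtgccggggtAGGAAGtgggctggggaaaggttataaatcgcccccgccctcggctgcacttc
Egfl7: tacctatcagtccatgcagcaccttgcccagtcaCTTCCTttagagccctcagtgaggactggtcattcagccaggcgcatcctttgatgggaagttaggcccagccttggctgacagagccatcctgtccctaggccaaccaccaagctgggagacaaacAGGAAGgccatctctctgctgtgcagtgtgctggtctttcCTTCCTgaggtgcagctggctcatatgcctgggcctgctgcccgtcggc
The first of these holds 2 copies, the second 2 and the last 3. The window of Gimap4, another of the genes looked up, also held 2 copies before the start site and is not printed. Of the 30 endothelial genes looked up (the 4 genes of the rule, Egfl7 and the 25 leading genes named further on), 16 had a window in the table. In the 250 bases before the start site, AGGAAG on either strand stood in 8 of these 16, against 29.2% of the 27025 promoters of the table. In the whole 300-base windows, which run 50 bases past the start site, it stood in 10 of 16 (62.5%) and 35.1%. The longer words CAGGAAGT and CCGGAAGT stood in 0 of the 16 whole windows and in 3.38% and 4.00% of all, and the core GGAA alone stood in 93.8% and 95.9%. A match is only a description of these letters.

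The rule kept 61 of 6384 WT cells, a share of 0.956% (exact Clopper-Pearson interval 0.732 to 1.23%). It kept 5 of 3624 Mettl3pKO cells, a share of 0.138% (0.0448 to 0.322%). The WT share was 6.93 times the Mettl3pKO share (exact interval 2.81 to 22.1). Mesenchymal cells, chosen by their collagens, also took a larger share in WT (1358 cells, 21.3%) than in Mettl3pKO (302 cells, 8.33%). Immune cells took 1.85% and 1.21%, and cells with an Epcam UMI took 70.8% and 89.3%. The libraries differed in depth, the median cell having 10824 UMIs in WT (range 3803 to 59406) and 16481 in Mettl3pKO (range 10719 to 54778). At 13000 UMIs or more, 11 of 2171 WT cells (0.507%) and 3 of 3057 Mettl3pKO cells (0.0981%) were endothelial, a ratio of 5.16 (1.36 to 28.8). The libraries also differed in the sex-linked RNA of their other cells, with Xist and no Y-linked UMI in 55.2% of WT and 19.01% of Mettl3pKO cells. Among the endothelial cells 31 of 61 in WT and 1 of 5 in Mettl3pKO had Xist alone, and 17 and 3 had Y-linked UMIs alone. Fewer endothelial cells in the tissue and fewer released by the digestion or kept by the depth limit of each library cannot be told apart here.

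The limits on other cell types mattered more in the smaller group. Before them, 78 WT and 12 Mettl3pKO cells had the required UMIs, and the ratio of shares was 3.69 (2.00 to 7.45). The limits removed 17 and 7 cells, of which Epcam removed 11 and 6, the collagens 5 and 3, Ctrb1 4 and 1, and the hormones 0 and 0. The cells that were kept stood well clear of the threshold of 4. The lowest sum over Pecam1, Cdh5, Kdr and Cldn5 among them was 20 UMIs in WT and 19 in Mettl3pKO, and the highest sum among cells that met the limits but not the rule was 8 and 5, all from a single gene. All 4 genes were found in 54 of 61 WT cells and 4 of 5 Mettl3pKO cells, and 3 genes in the remaining 7 and 1. The 61 WT cells held 635485 UMIs in all, with a median of 9189 per cell (6718 to 21068), and the 5 Mettl3pKO cells held 72542, with a median of 14002 (12043 to 17346).

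The label markers were present in nearly all of the cells. Levels are given as CPM, the UMIs of a gene per 1000000 UMIs of the cells summed, and per-cell values as UMIs per 10000. Pecam1, Cdh5, Kdr and Cldn5 chose the cells and are given as a description. In WT cells Pecam1 was at 1622 CPM (exact Poisson interval 1525 to 1725), and its per-cell value ran from 3.77 over a median of 15.7 to 38.0. Cdh5 was at 1438 CPM, with per-cell values of 3.50, 14.2 and 34.7, and Kdr at 1180 CPM, with 1.23, 10.5 and 34.8. No WT cell was without any of these 3. Plvap, which encodes the protein of fenestral diaphragms, was found in 59 of 61 cells (96.7%) at 1522 CPM, with a median of 14.9 per 10000 and a highest value of 34.9. It had a UMI in 4.27% of WT mesenchymal cells, whose median depth was 8972 UMIs. Egfl7 was found in all 61 cells at 1105 CPM (1024 to 1189), with per-cell values of 2.35, 9.97 and 25.4. Its CPM was 68.2 times that of all other WT cells together, and the fold was 456 for Plvap, 330 for Pecam1, 607 for Cdh5 and 257 for Kdr.

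**Figure D1:**
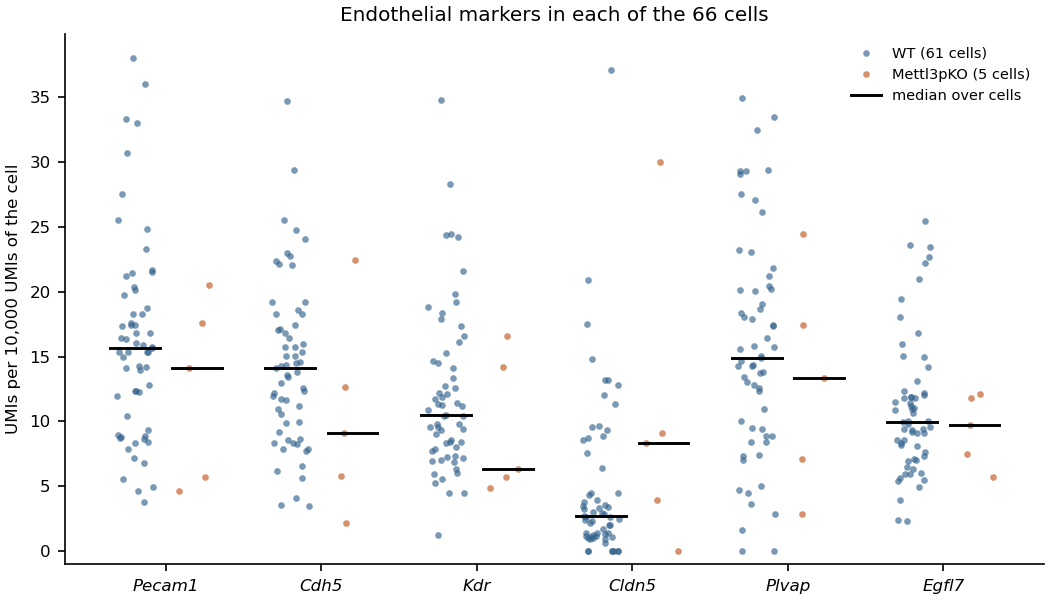
Each point is 1 of the 66 endothelial cells, and the vertical axis gives UMIs of the gene per 10000 UMIs of that cell for the genes named on the horizontal axis, WT and Mettl3pKO side by side, with a line at the median. Pecam1, Cdh5 and Kdr are above 0 in every cell, Plvap is at 0 in 2 WT cells, and the 5 Mettl3pKO cells lie within the WT range for Pecam1, Kdr, Cldn5, Plvap and Egfl7, with 1 of them below the lowest WT cell for Cdh5.

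The 5 Mettl3pKO cells carried the same markers. From the deepest cell to the shallowest, Pecam1 had 8, 29, 8, 26 and 17 UMIs, Cdh5 10, 15, 3, 16 and 27, and Kdr 11, 8, 8, 18 and 20. Plvap had 5, 22, 10, 31 and 21 UMIs and Egfl7 21, 16, 8, 15 and 9. Every cell was positive for all 5 genes, and the third deepest had the lowest UMI count, or tied for it, for Pecam1, Cdh5, Kdr and Egfl7. Over the 5 cells Plvap was at 1227 CPM, 0.806 of the WT level (exact interval of the ratio 0.642 to 1.00), and Egfl7 at 951 CPM, 0.861 of it (0.662 to 1.10).

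Low RNA of acinar, hormone, collagen and Epcam-positive cells is in part what the rule required, and the values are given as a description of the cells kept. Ctrb1 had UMIs in all 61 WT cells, but at 570 CPM against 19960 CPM in the other WT cells, or 2.85% of their level. Cpa1 stood at 2.41%, Ins2 at 1.97% and Gcg at 2.00% of the level in the other cells. Sst stood at 26.4% and Pyy at 13.0%, and 1 WT cell held an endocrine list sum of 276 per 10000, against a median of 4.08. Summed over the list of epithelial markers, the highest WT cell had 2.20 per 10000, over pericyte and smooth muscle markers 3.72 and over mesenchymal markers 13.7. Most of the mesenchymal sum was Nkx2-3, a homeobox factor found in 41 of 61 WT cells at 199.8 CPM against 12.5 CPM in the other WT cells. Postn stood at 20.4% of the level in the other cells, all from 1 cell. The highest Mettl3pKO cell had 1.43, 0.714 and 8.30 for the epithelial, pericyte and mesenchymal lists. In 4 WT cells globin and other erythroid genes summed to more than 100 per 10000, up to 2713. Among Mettl3pKO cells the shallowest had 1172 per 10000 of the erythroid list, with 396 Hba-a1 and 477 Hbb-bs UMIs. The third deepest had 167 per 10000 of the immune list, with 160 Lyz2, 9 Tyrobp and 3 Ptprc UMIs, whereas the highest WT cell had 3.67. The globin genes have close copies, so how their UMIs divide among copies is uncertain.

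The 25 genes named next led the comparison of WT endothelial cells with the other WT cells, ranked by the lower bound of the fold's interval and not by the fold itself. They were taken among genes at 100 CPM or more with at least 50 UMIs in 10 cells or more, leaving out the 4 genes of the rule. Because the cells were chosen on their expression, the folds describe them and test nothing. They ran from 228 to 1093. Of 5253 genes with 20 or more UMIs in the WT endothelial cells, 1069 (20.4%) were at least 2-fold higher in WT endothelial cells and 224 (4.26%) at least 2-fold lower. Because this minimum is set in the endothelial cells, genes that are low there drop out, and the list counts against other cells given further on cover only the members that passed. With mesenchymal cells alone as the comparison the 25 folds ran from 67.6 to 1442, and with immune cells alone from 8.59 for Ctla2a to 2881 for Fabp4, with 0.5 UMIs added to each count.

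Receptors and surface proteins made up much of this set. Tie1, an orphan receptor that modulates angiopoietin signalling, was found in all 61 WT cells at 880 CPM, with per-cell values of 2.24, 8.27 and 18.5, and was 597 times higher than in other cells. Cd93, a C-type lectin receptor, was found in 60 cells at 927 CPM. Flt1, which binds VEGF-A as a decoy, was found in 58 cells at 763 CPM and 228 times the level of other cells. Aplnr, the receptor for the peptide apelin, was found in 49 cells at 510 CPM. Myct1, a membrane protein named as a Myc target, had the highest fold of the set, at 275 CPM in 54 cells. The phosphatase gene Ptprb, which restrains the receptor Tek, was found in 55 cells at 423 CPM. Emcn was found in 55 cells at 430 CPM, Mmrn2 (multimerin-2, a matrix ligand of CD93) in 55, Icam2 in 50, Robo4 in 44 and Gpihbp1, which carries lipoprotein lipase across capillaries, in 38.

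Transcription factors of the SoxF group were all in the set. Sox18 was found in 49 cells at 370 CPM, Sox7 in 40 at 151 CPM and Sox17 in 39 at 184 CPM. Their levels in other WT cells were lower by 432, 571 and 443 times. Fabp4, a fatty acid binding protein of capillary endothelium, was found in 50 cells at 1100 CPM, with a median of 5.51 per 10000 and a highest value of 56.7. The other members were Klhl4 in 46 cells, Gimap4 in 48, Cyyr1 in 47, Ctla2a in 47, Adgrl4 in 32 and Ly6c1 in 49, the last of which has a close paralog in Ly6c2 that could share its reads. In all, 22 of the 25 were found in 30 or more WT cells. The exceptions were Gja4 and Mmrn1 in 16 cells each and Vwf in 17.

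**Figure D2:**
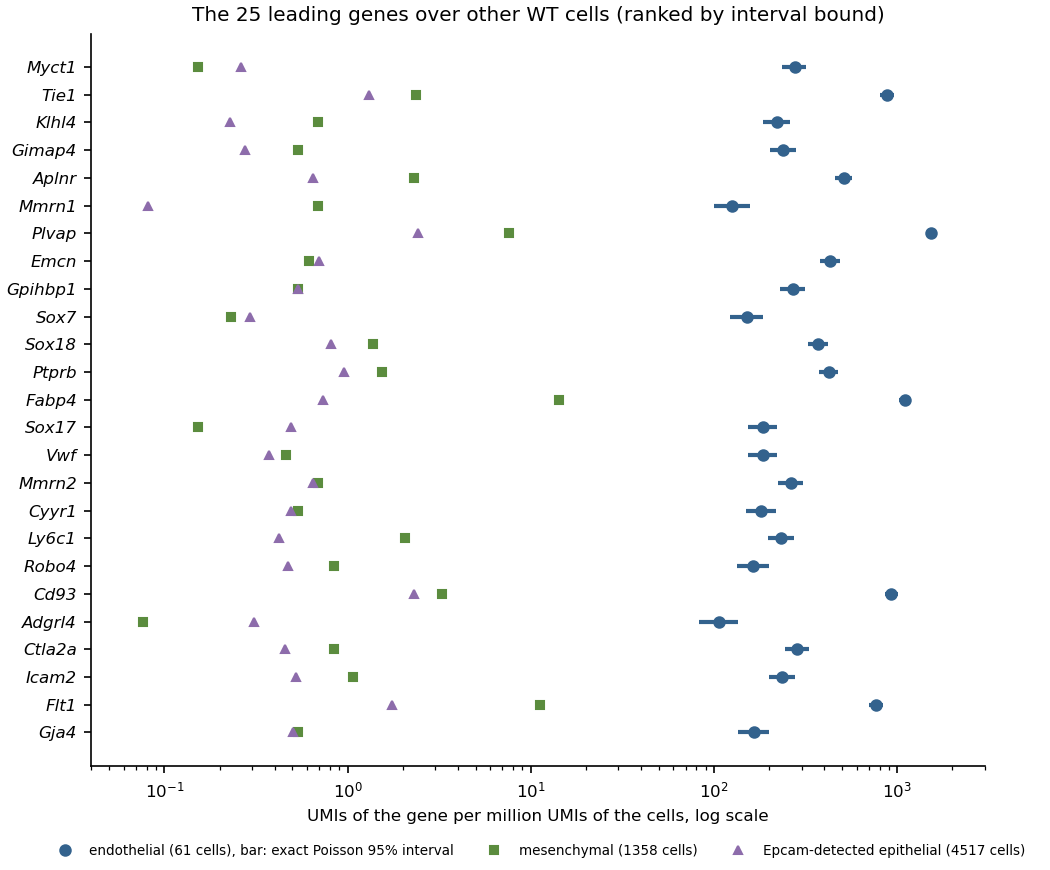
The horizontal axis gives the level of each gene in CPM on a log scale, and each row is 1 of the 25 leading genes over other WT cells, with points for the endothelial, mesenchymal and epithelial cells of the WT library and exact Poisson 95% intervals for the endothelial ones. The endothelial point lies far to the right of both others in every row, 1100 CPM for Fabp4 and 126 CPM for Mmrn1 among them.

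All 25 genes had UMIs in the 5 Mettl3pKO cells. There they were 73.9 to 8696 times higher than in the other Mettl3pKO cells. Between genotypes, 1 was at least 2-fold higher in Mettl3pKO (Mmrn1), 3 were at least 2-fold lower (Gimap4, Sox7 and Ly6c1) and 21 lay between. Over all 5609 genes with 20 or more UMIs in the endothelial cells of both libraries together, 425 (7.58%) were at least 2-fold higher in Mettl3pKO and 640 (11.4%) at least 2-fold lower, and the median log2 ratio was 0.03. Of these genes 208 had 0 UMIs in the Mettl3pKO cells. Tie1 had 8, 5, 2, 9 and 11 UMIs in the 5 cells, or 483 CPM, 0.549 of the WT level (0.378 to 0.772). Cd93 had 2, 11, 7, 13 and 7 UMIs, or 551 CPM, 0.595 of the WT level. Fabp4 had 4, 40, 25, 38 and 20 UMIs, or 1751 CPM, 1.59 times the WT level (1.31 to 1.93), and its low cell was the deepest one.

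Receptors for vascular growth factors were measured in full. Of the VEGF receptor list (Kdr, Flt1, Flt4, Nrp1 and Nrp2), Kdr helped to choose the cells, and the other 4 of 4 were at least 2-fold higher in WT endothelial cells than in other WT cells (20.4% of all genes). Flt4, the receptor for VEGF-C, was at 156 CPM and 258 times the level of other cells, and Nrp2 at 296 CPM and 26.2 times. Nrp1 was at 258 CPM and 2.96 times, and 82.2% of WT mesenchymal cells also had a UMI of it. Tek, the receptor for angiopoietins, was at 123 CPM in 39 cells. Between genotypes 0 of the 5 VEGF receptors were 2-fold higher or lower (7.58% and 11.4% of all genes), with a median log2 ratio of −0.32.

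The ligands of these receptors came from different cells of the WT library. Vegfa was at 26.8 CPM in endothelial cells, 219 CPM in epithelial cells and 122 CPM in mesenchymal cells. Vegfd was at 1.57, 3.595 and 97.7 CPM in the same order, and Pgf at 0, 5.95 and 47.4 CPM. Angpt1, the ligand of Tek, was at 0, 7.09 and 22.6 CPM. The 0 in endothelial cells allows up to 4.72 CPM (3 counts). Vegfc was instead at 42.5 CPM in endothelial, 1.61 in epithelial and 18.7 in mesenchymal cells. Of the guidance cues, Slit2 was at 4.72, 6.95 and 172 CPM and Sema3c at 1.57, 42.1 and 134 CPM, while Sema3e was at 0, 1.81 and 1.30 CPM.

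Apelin and its receptor were both made by the endothelial cells. Apln, which sprouting tip cells are known to secrete, was at 458 CPM in WT endothelial cells, 0.911 CPM in epithelial cells and 8.66 CPM in mesenchymal cells. It had UMIs in 42 of 61 WT endothelial cells (68.9%) and in 6.33% of mesenchymal cells. After thinning each cell to 5000 UMIs these shares were 55.7% and 4.12%. Aplnr had UMIs in 49 cells (80.3%), and in 1.62% of mesenchymal cells. Both genes were detected together in 36 cells, Apln alone in 6, Aplnr alone in 13 and neither in 6. In Mettl3pKO cells Apln had 0, 0, 8, 1 and 2 UMIs, or 152 CPM, 0.331 of the WT level (0.164 to 0.601), while Aplnr had 0, 14, 2, 14 and 11 UMIs, or 565 CPM, 1.11 times the WT level (0.781 to 1.54).

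Of 27 junction and adhesion genes 24 were measured, including the rule's Pecam1, Cdh5 and Cldn5. Of the 21 others 18 were at least 2-fold higher than in other WT cells and 0 lower (20.4% and 4.26% of all genes). Esam, a tight junction adhesion molecule, was at 799 CPM and 164 times the level of other cells. Between genotypes 1 of the 24 was at least 2-fold higher in Mettl3pKO (Cldn5) and 3 were lower, beside 7.58% and 11.4% of all genes, and the median log2 ratio was −0.26 (−0.22 with the gene at 0 set to 3 counts). Among the lower ones, Podxl, a sialomucin of the lumen side, was at 0.228 of the WT level (0.0612 to 0.595) from 4 UMIs.

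Of 28 measured endothelial transcription factors, 25 were at least 2-fold higher than in other WT cells and 1 lower (20.4% and 4.26% of all genes). The ETS factors Ets1, Fli1 and Elk3 were at 297, 236 and 556 CPM, and Erg at 69.2 CPM in 25 cells. Fli1 was 44.7 times and Ets1 17.4 times the level of other cells. Between genotypes 2 of the 28 were at least 2-fold higher and 6 at least 2-fold lower (7.58% and 11.4% of all genes), and their median log2 ratio was −0.08. Epas1, the hypoxia factor HIF-2 alpha, had 1, 0, 2, 1 and 2 UMIs in Mettl3pKO cells, 0.294 of the WT level (0.106 to 0.652). The flow-responsive factors Klf2 and Klf4 were at 0.547 and 0.401 of it.

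The basement membrane, which endothelial cells deposit beneath them, was represented by 14 measured genes, of which 13 were at least 2-fold higher than in other WT cells (20.4% of all genes). Col4a1, a chain of type IV collagen, was found in all 61 WT cells at 4039 CPM (3885 to 4199), with per-cell values of 1.12, 40.4 and 107, 13.1 times the level of other cells. Its partner Col4a2 was at 1297 CPM and 14.2 times. In Mettl3pKO cells Col4a1 had 16, 77, 24, 51 and 9 UMIs, or 2440 CPM, 0.604 of the WT level (0.516 to 0.704), and Col4a2 was at 0.659 of it (0.501 to 0.854). Summed over the list, the same cells had 53.6, 174, 75.0, 160 and 68.1 per 10000, beside a WT median of 148.9 (52.3 to 351). The low sums were those of the cell with Lyve1 and Ccl21a described below, the cell with Lyz2 UMIs and the cell rich in globin UMIs. Between genotypes 1 of the 14 was at least 2-fold higher (Fn1, fibronectin) and 3 were lower (7.58% and 11.4% of all genes), among them the laminin chain Lamc1 at 0.344 and the linker Nid2 at 0.214. The median log2 ratio of the list was −0.53 (−0.51 with the gene at 0 in Mettl3pKO set to 3 counts).

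Genes for fenestrae, caveolae and lipid uptake were high in both genotypes. All 9 measured members of the fenestration and caveolae list were at least 2-fold higher than in other WT cells (20.4% of all genes). Between genotypes 0 of 9 were 2-fold higher or lower (7.58% and 11.4% of all genes). Cav1, the coat protein of caveolae, was found in all 61 WT cells at 1569 CPM, and Mettl3pKO was at 1.04 times that level (0.849 to 1.26). Cd36, a fatty acid transporter, was at 658 CPM and 1.01 times (0.730 to 1.36). Of 13 transporters of barrier-type endothelium, 9 had UMIs in the WT cells, and the list summed to 477 CPM against 569 CPM in other WT cells. Of 4 measured, 1 was at least 2-fold higher and 1 lower than in other WT cells (20.4% and 4.26% of all genes). The transporters Mfsd2a and Slco1a4 and the lung and heart capillary gene Car4 had 0 UMIs in the 61 WT cells, which allows up to 4.72 CPM each.

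The counts of further signalling lists stand beside 20.4% of all genes higher and 4.26% lower against other WT cells, and 7.58% higher and 11.4% lower between genotypes. All 15 measured genes of the endothelial G protein coupled receptor list were at least 2-fold higher than in other WT cells. S1pr1, the receptor for sphingosine 1-phosphate, was at 242 CPM and 130 times the level of other cells, and Ramp2, the partner of the adrenomedullin receptor, at 878 CPM. Between genotypes 2 of the 15 were at least 2-fold higher and 5 lower. Of 12 measured Notch pathway genes 9 were higher than in other WT cells and 1 lower, and between genotypes 0 were higher and 2 lower. In the BMP and TGF beta list 10 of 15 were higher than in other WT cells, with the co-receptor Eng at 445 CPM and 43.9 times. Between genotypes 1 of the 15 was higher and 3 were lower. Of the secreted signals 9 of 16 were higher and 2 lower than in other WT cells, among the higher ones Edn1, the vasoconstrictor endothelin, at 175 CPM and 31.8 times. Between genotypes 1 of 17 was higher and 6 were lower, with Edn1 at 0.552 of the WT level (0.217 to 1.18). The haemogenic list, which marks endothelium that gives rise to blood cells, had 10 members, of which 7 had UMIs in the 61 WT cells. The list summed to 210.9 CPM in these cells against 207.1 CPM in other WT cells. Of 3 measured members, 1 was higher and 1 lower than in other WT cells. Gfi1, Gfi1b and Spi1 had 0 UMIs in the 61 WT cells.

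Among the WT cells, a few held genes of distinct vessel types. These sets were drawn after the values had been seen, so they are given as descriptions. In 3 WT cells and 1 Mettl3pKO cell both Lyve1, a hyaluronan receptor, and Ccl21a, a chemokine of lymphatic vessels, were detected. The other 58 WT cells had neither gene. The 3 WT cells had 18236, 8582 and 8117 UMIs. In them Lyve1 had 82, 22 and 44 UMIs, Ccl21a 60, 7 and 33, and the lymphatic regulator Prox1 13, 1 and 12. Mmrn1 had 42, 9 and 13, Reln 20, 10 and 3, and the lymphatic marker Pdpn 2, 0 and 0. The second of these cells was the one with 2713 per 10000 of the erythroid list, with 764 Hba-a1 and 548 Hbb-bs UMIs. The Mettl3pKO cell was the deepest of its library, with 61 Lyve1, 78 Ccl21a, 15 Prox1 and 47 Mmrn1 UMIs. Ccl21a has near-identical copies in the mouse genome, so its UMIs may include those of the copies.

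These 3 WT cells differed from the rest in more than lymphatic genes. They had 0 UMIs of Cd34, a surface sialomucin that was found in all 48 of the WT cells outside the vessel-type sets at 982 CPM, and 0 of Esam, Flt1, Aplnr and Apln. The Mettl3pKO cell with Lyve1 and Ccl21a also had 0 Cd34, 0 Aplnr and 0 Apln UMIs. The scavenger receptor gene Stab1 was at 1431 CPM in the 3 cells against 146 CPM in the 48. Nfatc1, a valve and lymphatic transcription factor, was at 658 against 48.5 CPM. The imprinted RNA H19 was at 34720 against 4192 CPM, a ratio of 8.28 (7.71 to 8.90). Gja4, often used as an arterial marker, was at 859 against 8.09 CPM. The 48 leave out by definition the 10 cells with Gja4 and Unc5b described next, so this contrast was partly set in advance. Those 10 cells held 71 of the 105 WT Gja4 UMIs, and the 3 cells held 30.

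Gja4 and Unc5b, a netrin receptor of arterial and tip cells, were detected together in 10 further WT cells and in none of the further Mettl3pKO cells. Hey1, a Notch target, was found in 8 of these 10 cells at 567 CPM and in 3 of the other 48 at 8.09 CPM. The Notch ligand Dll4 was at 274 against 42.4 CPM, Sox17 at 586 against 111 CPM, and the chemokine Cxcl12 at 312 against 8.09 CPM. Sema3g and Sema7a, both semaphorins, were at 416 and 520 CPM against 20.2 CPM each. The gap junction gene Gja5 had 27 UMIs in 4 of the 10 cells and 0 in the 48. On the other side, the venous factor Nr2f2 was found in 1 of the 10 cells and 36 of the 48, at 9.45 against 344 CPM. Nrp2 was at 18.9 against 340 CPM. Aplnr was found in 3 of 10 and 46 of 48 cells, at 104 against 633 CPM.

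**Figure D3:**
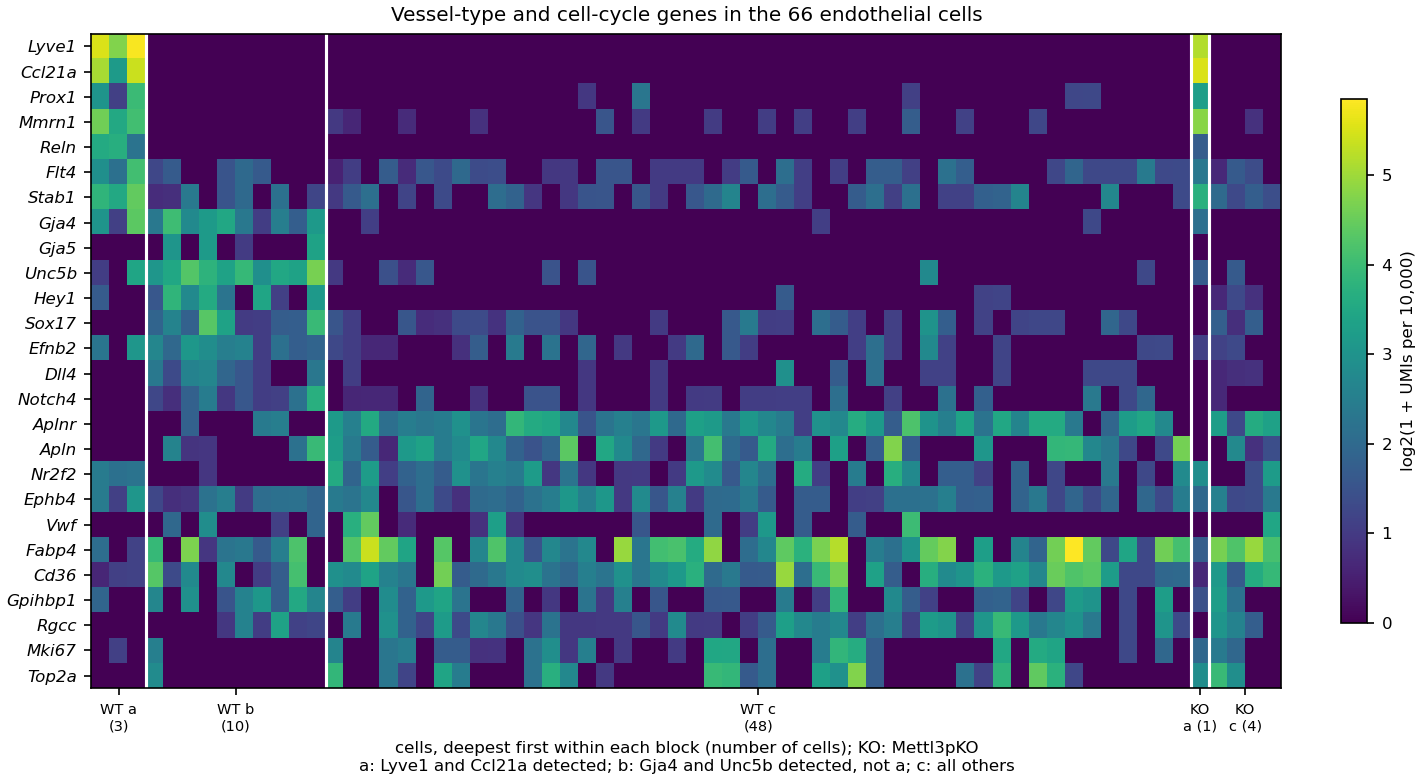
Each column is 1 of the 66 endothelial cells and each row a vessel-type or cell-cycle gene, coloured by its level, with cells in blocks by library and by whether Lyve1 with Ccl21a or Gja4 with Unc5b were detected. Hey1 fills most of the block of 10 WT cells with Gja4 and Unc5b, and Lyve1 and Ccl21a are confined to the 3 WT cells and 1 Mettl3pKO cell that define their block.

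Over all WT cells the pair Nr2f2 and Sox17 overlapped. They were detected together in 24 of 61 cells, Nr2f2 alone in 16, Sox17 alone in 15 and neither in 6. Nr2f2 also had a UMI in 97.9% of WT mesenchymal cells, and Sox17 was found in 29 of the 48 WT cells outside the vessel-type sets. The genotype counts of the vessel-type lists stand beside 7.58% of all genes higher and 11.4% lower. Of 19 measured arterial genes 0 were at least 2-fold higher in Mettl3pKO and 6 lower, and the median log2 ratio was −0.76 (−0.74 with the 2 genes at 0 in Mettl3pKO set to 3 counts). Of 9 venous genes 0 were higher and 0 lower, and their median was −0.10. Of 10 lymphatic genes 7 were at least 2-fold higher and 1 lower, with a median of 1.54. These list values moved with the cells just described. Without the cells that held Lyve1 with Ccl21a or Gja4 with Unc5b the arterial median was 0.17 over 11 measured genes and the lymphatic median 0.42 over 3 measured genes.

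Tip cell genes are those of the leading cells of a sprout. Of 21 measured, 20 were at least 2-fold higher than in other WT cells (20.4% of all genes). Between genotypes 1 was at least 2-fold higher and 5 lower (7.58% and 11.4% of all genes). The median log2 ratio was −0.59. Unc5b, Dll4, Igfbp3 and Cxcr4 stand in the arterial list as well. Of their WT UMIs 81.3%, 58.0%, 60.6% and 90.5% were in the 10 cells with Gja4 and Unc5b. Unc5b helped to define these 10 cells, which held 16.7% of all WT endothelial UMIs. Without these and the Lyve1 and Ccl21a cells the tip cell median was −0.11 over 19 measured genes. Nos3, the endothelial nitric oxide synthase, belongs to the flow response list and was at 153 CPM in 40 WT cells and at 0.181 of that level in Mettl3pKO (0.0216 to 0.670) from 2 UMIs. Pdgfb, which recruits pericytes, was at 239 CPM in WT and 0.576 of it in Mettl3pKO (0.271 to 1.09).

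RNA of proliferation genes was found in many endothelial cells. A cell was counted as having proliferation RNA when it had at least 2 UMIs over 9 proliferation genes. This held for 33 of 61 WT endothelial cells, a share of 54.1% (40.9 to 66.9%). After thinning every cell to 5000 UMIs it was 45.9% (33.1 to 59.2%), beside 35.9% of mesenchymal, 47.5% of immune and 39.5% of epithelial cells. The intervals of the endothelial share hold all 3 of these values. In Mettl3pKO 4 of 5 endothelial cells passed (80.0%, 28.4 to 99.5%), and after thinning 68.5% of mesenchymal, 65.9% of immune and 65.7% of epithelial cells did. The share was thus higher in Mettl3pKO in each of the other 3 classes as well. Within WT, 2 of the 10 cells with Gja4 and Unc5b passed, 1 of the 3 with Lyve1 and Ccl21a, and 30 of the other 48. Top2a, the topoisomerase of dividing cells, was at 85.1 CPM in the 10 cells against 386 CPM in the 48. Of 42 measured G2M genes 5 were at least 2-fold higher in Mettl3pKO and 2 lower (7.58% and 11.4% of all genes). Their median log2 ratio was 0.42. The 10 cells, the 3 cells and the 48 differ in this share by description only, since they were set apart on their expression.

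**Figure D4:**
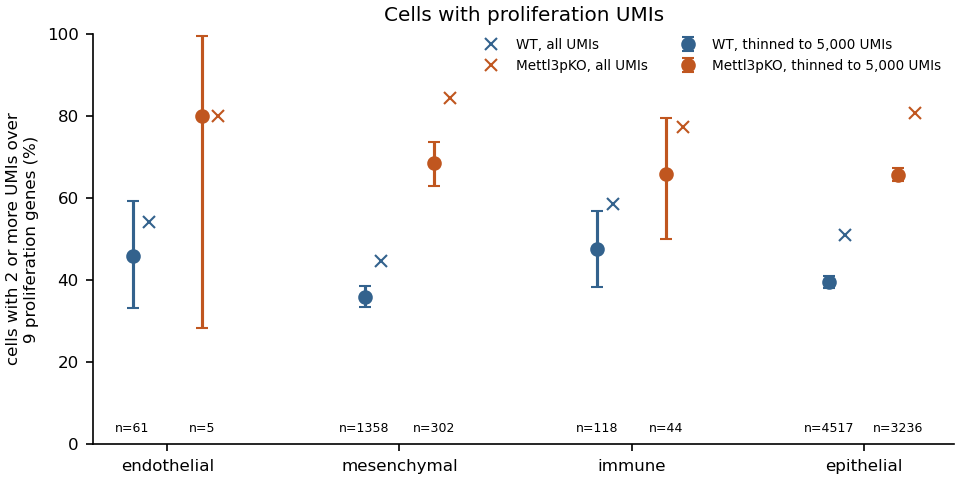
The vertical axis gives the percentage of cells with 2 or more UMIs over 9 proliferation genes in 4 cell classes of each library, before and after thinning to 5000 UMIs, with exact Clopper-Pearson 95% intervals as bars. The endothelial intervals are wide, 33.1 to 59.2% in WT after thinning and 28.4 to 99.5% in Mettl3pKO.

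Mettl3 itself was too low to check in these cells. It had 14 UMIs in 10 WT endothelial cells, or 22.0 CPM (12.04 to 37.0), and 0 UMIs in the 5 Mettl3pKO cells, where 3 counts correspond to 41.4 CPM. The depth thus does not allow a difference in Mettl3 to be detected. The deletion is directed at Pdx1-expressing cells, not at endothelium. Of 17 measured genes of the m6A machinery, 1 was at least 2-fold higher in Mettl3pKO endothelial cells and 0 lower. Over all genes the shares were 7.58% and 11.4%.

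At each end of the Mettl3pKO to WT ratio 12 genes were named by rule, ranked by the interval bound nearest 1 and not by the ratio itself, among genes at 100 CPM or more in either library with 50 UMIs or more over both. The ratios chose them, so they are a description. A gene whose interval bound lies closer to 1 can have a more extreme ratio without being named, such as Lpar6 at 2.50 with 20 Mettl3pKO UMIs. Apoe, an apolipoprotein abundant in macrophages, was at 25.2 CPM in WT and 483 CPM in Mettl3pKO, a ratio of 19.2 (10.3 to 37.1). Thbs1, an inhibitor of vessel growth, was at 94.4 and 744 CPM, a ratio of 7.88 (5.36 to 11.6). Selenop, a selenium carrier, was at 818 and 1847 CPM, a ratio of 2.26 (1.85 to 2.74), and had 59, 16, 28, 13 and 18 UMIs in the 5 cells. Klf6, an immediate early factor, was at 305 and 731 CPM, with 6, 7, 26, 8 and 6 UMIs. Lims1, an adaptor of integrin adhesions, had 14, 8, 2, 4 and 10 UMIs, a ratio of 2.33, and Fn1 10, 3, 8, 3 and 0 UMIs, a ratio of 2.53. Cldn5, a gene of the rule, was at 504 and 1130 CPM, a ratio of 2.25 (1.74 to 2.87), with 52, 15, 0, 5 and 10 UMIs. The others were Cd63, Fam49b, Itm2a, Add3 and Zfp36, with ratios of 3.35, 3.75, 2.71, 2.53 and 2.11.

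For 8 of these 12 genes more than 50% of the Mettl3pKO UMIs came from 1 cell. The cell with Lyve1 and Ccl21a held most of those of Cd63, Itm2a, Cldn5 and Add3 (91.4% for Itm2a and 63.4% for Cldn5). The cell with 160 Lyz2 UMIs held most of those of Apoe, Thbs1, Fam49b and Zfp36 (85.7% for Apoe and 81.5% for Thbs1). Without the Lyve1 and Ccl21a cells of both libraries 7 of the 12 were still at least 2-fold higher, with Cldn5 at 1.22 and Itm2a at 0.511. Without cells rich in erythroid, immune or endocrine markers 9 were, with Apoe at 2.78 from 3 UMIs in 1 cell and Thbs1 at 2.07. Without both kinds of cell, which leaves 2 of the 5 Mettl3pKO cells, 3 were (Apoe, Thbs1 and Fam49b). In these 2 cells Apoe had 0 and 3 UMIs, Thbs1 2 and 3, and Fam49b 0 and 4. There 3 counts correspond to 102.9 CPM. Mmrn1 had 47 of its 48 Mettl3pKO UMIs in the Lyve1 and Ccl21a cell, so its ratio of 5.26 (3.596 to 7.61) went to 0.989 without those cells.

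Among the 12 genes named at the low end, Ppic, a cyclophilin of the secretory pathway, was found in all 61 WT cells at 604 CPM and had 1, 3, 2, 2 and 2 UMIs in the Mettl3pKO cells, or 138 CPM, a ratio of 0.228 (0.109 to 0.424). Cd34 was at 1139 CPM in WT and had 0, 12, 4, 15 and 2 UMIs in Mettl3pKO, a ratio of 0.399 (0.273 to 0.566). Tcim had 0, 4, 4, 1 and 0 UMIs, a ratio of 0.290, and Glul, glutamine synthetase, 4, 1, 2, 1 and 1, a ratio of 0.298. Cdkn1c, an inhibitor of cell cycle kinases, was at 227 CPM in WT and had 3 UMIs in Mettl3pKO. Maged2 and Ptprg had 2 UMIs each, against 214 and 194 CPM in WT. Madcam1, an adhesion molecule for leukocyte homing, was at 313 CPM in WT and 82.7 CPM in Mettl3pKO.

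Another 4 genes had 0 UMIs in the Mettl3pKO cells. Against 3 counts, Apbb2 was at least 2.66-fold higher in WT, Snn at least 2.59-fold, the protease gene Adamts1 at least 2.55-fold and Sema7a at least 2.47-fold. Without both kinds of cell, 6 of the 12 had UMIs in the 2 Mettl3pKO cells left and were still at least 2-fold lower with 0.5 UMIs added. Ppic and Tcim had 5 UMIs each in these cells and Madcam1 4. Ptprg, Cdkn1c and Glul had 2 UMIs each, which is below 3 counts. Cd34 was at 0.758. The other 5 of the 12 had 0 UMIs in the 2 cells, where 3 counts correspond to 102.9 CPM, and no fold is given for them. The 10 cells with Gja4 and Unc5b held 16.7% of all WT endothelial UMIs, 25.4% of those of Pecam1 and 28.1% of those of Kdr. They held more than 30% for 7 of the 12 genes, among them 84.6% for Sema7a, 46.0% for Glul and 32.9% for Cd34. No such cell was among the 4 remaining Mettl3pKO cells, and whether this bears on the ratios was not tested. Without these cells and the Lyve1 and Ccl21a cells, Cd34 was at 0.617 with 0.5 UMIs added. The others of the 12 then stayed within the interval of their main ratio. Without a limit on Epcam, which adds 3 Mettl3pKO cells, Adamts1 turned to a ratio of 3.62.

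**Figure D5:**
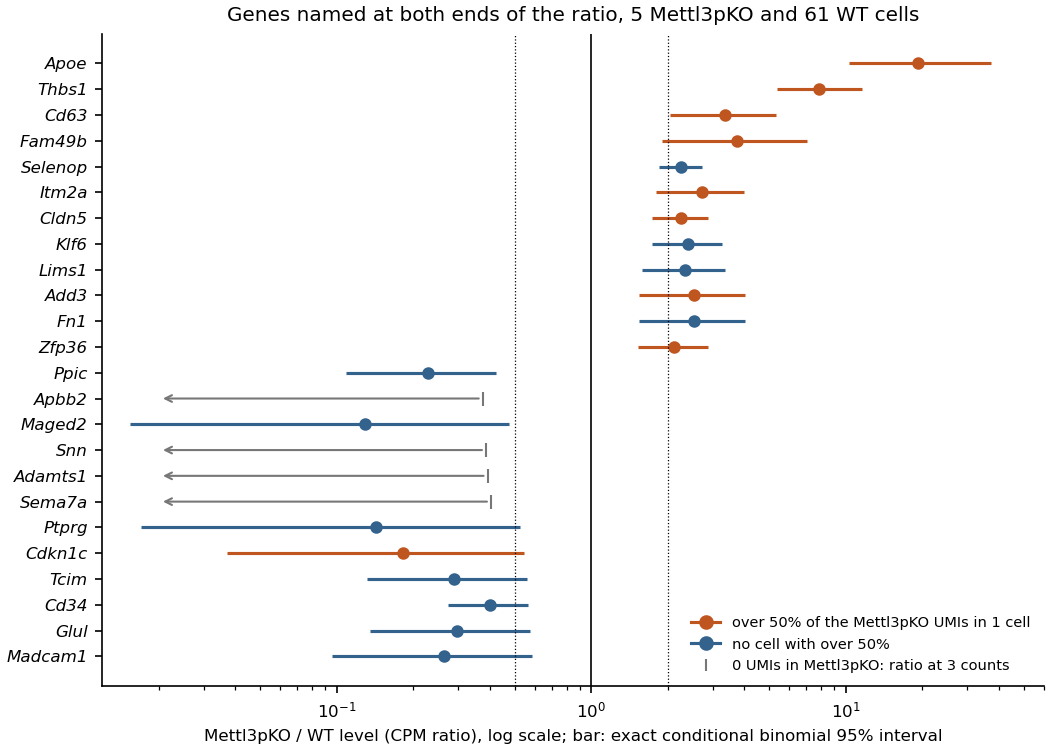
The horizontal axis gives the Mettl3pKO to WT ratio of CPM on a log scale for the named genes at both ends, as points with exact conditional binomial 95% intervals, in orange where 1 cell held over 50% of the Mettl3pKO UMIs. Grey ticks with arrows mark the 4 genes at 0 UMIs, placed at the ratio that 3 counts would give, and dotted lines mark 2-fold. Apoe lies furthest to the right at 19.2, and Ppic lies at 0.228.

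Stress and antigen genes were described as further lists. The dissociation stress and immediate early list had 25 measured genes. Of these, 8 were at least 2-fold lower in WT endothelial than in other WT cells and 1 higher (4.26% and 20.4% of all genes). Their median log2 ratio was −0.30. Egr1 was at 286 CPM, 0.166 of the level in other cells, and Fos at 534 CPM, 0.454 of it. Between genotypes 5 of 26 were at least 2-fold higher in Mettl3pKO and 0 lower (7.58% and 11.4% of all genes), with a median of 0.30. The cell with 160 Lyz2 UMIs had the highest sum over this list, 153.5 per 10000 against 33.4 to 114.7 in the other 4, and held 75.0% of the Atf3, 75.0% of the Dusp1 and 53.9% of the Zfp36 UMIs. Without cells rich in markers of another type the median was 0.16. It was 0.51 without the Lyve1 and Ccl21a cells and 0.33 without these and the Gja4 and Unc5b cells. It was 0.55 without the deepest cell of each library. Leaving out the Lyve1 and Ccl21a cells together with the cells rich in other markers gave 0.44. Of 11 measured antigen presentation and interferon genes, 7 were at least 2-fold higher in WT endothelial than in other WT cells and 1 lower. Over all genes the shares were 20.4% and 4.26%. B2m, the light chain of class I molecules, was at 648 CPM and 5.61 times the level of other cells. Of 12 imprinted growth genes 2 were at least 2-fold higher than in other cells and 6 lower (20.4% and 4.26% of all genes). The higher ones included Mest at 3951 CPM and 7.84 times the level of other cells.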

How the data were processed

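UMI counts per gene and cell were deposited by the authors for 1 WT and 1 Mettl3pKO library, with no normalization, per the file headers from the BD Rhapsody WTA pipeline 1.8. Per the submitters' processing notes the build was mm10, and Seurat is named without a role. Each table ends in 1 incomplete row, which was left out. The tables hold 80011421 UMIs over 6384 cells (WT) and 65779771 over 3624 (Mettl3pKO), and 33 cell indexes occur in both.

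The members and gene lists were chosen with earlier results of these data known. UMIs were summed over the endothelial cells of a library and divided by their total (CPM). Intervals are exact Poisson for levels, exact conditional binomial for ratios and Clopper-Pearson for shares. Genes with 20 or more UMIs counted as measured, log2 ratios had 0.5 UMIs added, and 2-fold stood in for a call. Genes were named by rule: the label markers, the 25 genes with the highest fold over other WT cells ranked by interval bound, then 12 genes at each end of the genotype ratio, also ranked by interval bound, among genes in 3 or more cells of the higher library. Mesenchymal cells had no Epcam and 20 or more collagen UMIs per 10000, and immune cells 4 or more UMIs over Ptprc, Tyrobp, Fcer1g and Lyz2. Cells were thinned with a fixed seed. No doublets were removed. Scrublet through scanpy 1.11.5, run as an alternative, marked 337 of 6372 WT cells (1 endothelial) and 1 of 3623 Mettl3pKO cells, so it did not work there. The ratio code was tested on simulated data. Python 3.11.15, numpy 2.4.6, scipy 1.17.1 and pandas 2.3.3 were used. Intervals cover counting error only. No label or header says whether counting used the strand, so UMIs of overlapping antisense genes cannot be told apart.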

Additional observations from a re-analysis of the deposited data

How the results depend on the processing

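No paired analysis was possible because each genotype had 1 library. The number of endothelial cells moved with the limits and the depth. It was 8 in Mettl3pKO without a limit on Epcam and 12 with the UMI requirement alone, 11 in WT and 3 in Mettl3pKO at 13000 UMIs or more, and 18 in WT among cells with at least the lowest total of Mettl3pKO. The numbers of genes at least 2-fold higher and lower in Mettl3pKO were 146 and 254 of 2123 at 13000 UMIs or more, 79 and 221 of 2603 among genes with 50 or more UMIs, and 1654 and 1376 of 9544 with 5 or more UMIs. With 1 UMI added 519 were higher and 425 lower, and the share of higher genes among both rose from 39.9% to 55.0%. It was 54.6% with 5 or more UMIs and 26.3% with 50 or more. Leaving out both the Lyve1 and Ccl21a cells and the cells rich in other markers, a setting chosen after seeing the data as were the others on these cells, gave 747 higher genes of 4893 and moved the median of all genes to 0.14.

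The lymphatic median was 0.89 without a limit on Epcam, −2.41 without the deepest cell of each library, 0.30 without the Lyve1 and Ccl21a cells, 0.42 without these and the Gja4 and Unc5b cells, and −0.059 without both the Lyve1 and Ccl21a cells and the cells rich in other markers. The venous median was −0.75 at 13000 UMIs or more and −0.87 without both kinds of cell, where the S phase median was 0.60. The arterial median was 0.17 without the Lyve1 and Ccl21a or Gja4 and Unc5b cells. Other list medians stayed within 1.5-fold of their main value, 297 in all over the lists and settings. This margin is wide for medians near 0, which could reach 0 or change sign within it. The tip cell median, for example, went from −0.59 to −0.11 without the Lyve1 and Ccl21a or Gja4 and Unc5b cells and counted as kept. Single genes turned direction in 9 cases: Adamts1 at 3.62 without a limit on Epcam, Mmrn1 at 0.213 and Itm2a at 0.349 without the deepest cells, Mmrn1 at 0.989 and Itm2a at 0.511 without the Lyve1 and Ccl21a cells, Mmrn1 at 0.815 and Itm2a at 0.546 when the Gja4 and Unc5b cells were left out too, and Itm2a at 0.393 and Add3 at 0.986 without both kinds of cell. The causes were not tested, beyond the per-cell UMIs given above. With 5 Mettl3pKO cells a gene at 41.4 CPM or less there can be at 0 by counting alone.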
